A study of Homo sapiens with 4 samples.

Results

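The 9 genes described here encode transcription factors of the neuroendocrine lineage, namely NEUROD1, INSM1, POU3F2, SOX2, NKX2-1, FOXA2, ONECUT2, PROX1 and LHX2, out of 19689 protein-coding genes with an annotated transcription start site (TSS). Each was followed through its gene body and 100 kb on either side, in GENCODE coordinates of hg38, and all accessible intervals in that window were taken from both deposited peak lists. The windows held 118 of the 149676 intervals called in C4-2B cells and 96 of the 118728 intervals called in C4-2BER cells.

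ATAC-seq, in which the Tn5 transposase inserts adapters into open chromatin, was carried out in 2 human prostate cancer lines. C4-2B is an adenocarcinoma line, and C4-2BER was raised from it under lasting exposure to enzalutamide, an androgen receptor inhibitor, and is labelled neuroendocrine-like. The labels give the same medium for both, and per the methods of the study C4-2BER was kept in enzalutamide throughout culture, so the line and the drug in its medium cannot be told apart. Whether C4-2BER is 1 clone is not given in the sources used here. Each line had 2 libraries that were merged before peaks were called, so there is no spread between replicates, and the differences given below were not tested between the lines.

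Loss of the luminal programme that the androgen receptor maintains, with gain of neuronal and endocrine traits, is a known route by which prostate cancer escapes androgen blockade. Lineage transcription factors act in such a switch by binding promoters and distal elements, and forkhead and SOX factors are known to bind sites in closed chromatin. An accessible interval marks where such elements are open in a cell population. It does not show which factor is bound there, and it does not measure the transcript.

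The recovered depth was 30.2 M reads in C4-2B and 25.2 M reads in C4-2BER, a ratio of 1.20, and a summit in the lists held no fewer than 8 and 7 reads respectively. The read numbers below are whole reads over the summit of an interval. Where the lines are set against each other, the reads were scaled by this depth. The rank is the percentile of an interval by its −log10 p within its own list. Promoter intervals of 6 of 6 luminal marker genes and 7 of 7 neuroendocrine marker genes were in both lists, so presence of a promoter interval did not separate the labelled types. In C4-2BER the rank was higher at 3 and lower at 3 of the luminal markers, with changes from −38.6 percentiles at KLK3, the gene of prostate-specific antigen, to 4.67 at FOLH1. It was higher at 4 and lower at 3 of the neuroendocrine markers, with changes from −4.43 at CHGB to 33.8 at NCAM1, where the lists called different intervals of the promoter. Of 5 marker genes of fibroblasts, blood and endothelium, 3 had a promoter interval in both lists, PECAM1 had one in C4-2BER and PTPRC had none.

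Across the 9 windows, 71 C4-2B intervals were shared with the C4-2BER list, which is 60.2% (Wilson 95% interval 51.2 to 68.5), and 47 were C4-2B-only. Shared means an overlap of at least 1 bp, and the intervals given with shares cover counting error only. In the C4-2BER list 71 intervals were shared, or 74.0% (64.4 to 81.7), and 25 were C4-2BER-only. Over the whole lists, 37.7% of C4-2B intervals and 20.8% of C4-2BER intervals were line-only, and both values lie inside the counting intervals of the 9 windows. The larger number of C4-2B-only intervals did not hold when the lists were made equal in length, where 29 were C4-2B-only and 31 C4-2BER-only. Of the line-only intervals, 18 of 47 in C4-2B and 5 of 25 in C4-2BER had a −log10 q of at least 10, beside 37.5% and 18.9% of all line-only intervals of the lists.

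**Figure D1:**
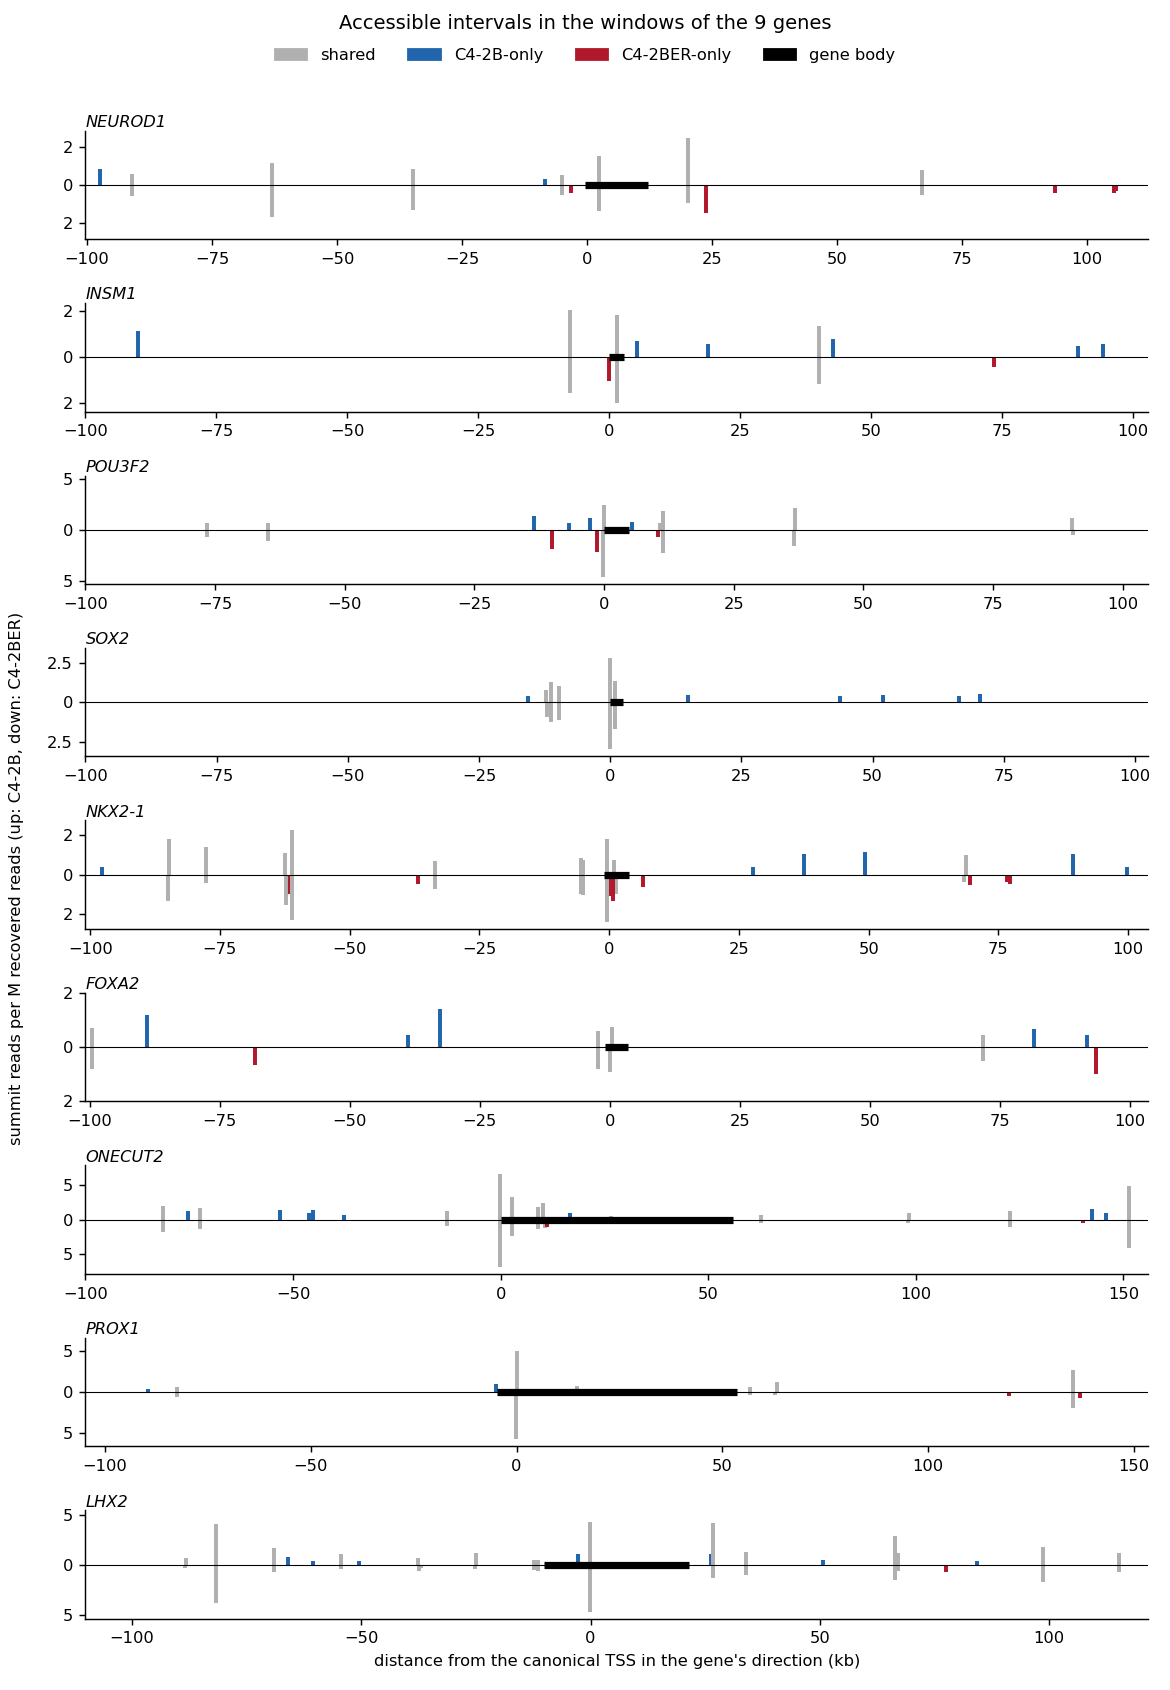
Each panel shows the window of 1 gene, with the distance from its canonical TSS in kb on the x axis and depth-scaled summit reads per M recovered reads on the y axis, C4-2B upward and C4-2BER downward. Grey bars are shared intervals, blue and red bars are line-only intervals and the black bar is the gene body. The tallest bars of either line stand at the promoters of ONECUT2 and PROX1, whereas most line-only bars are short and distal.

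The genes differed in the balance between the lines. The window of NEUROD1 held 2 C4-2B-only and 5 C4-2BER-only intervals, and that of NKX2-1 held 6 and 8. These were the 2 windows with more C4-2BER-only than C4-2B-only intervals, a balance found at 13.2% of all genes. It depended on the settings. Of 11 alternatives, NEUROD1 kept more C4-2BER-only intervals in 7 and held equal numbers in 3, and at a −log10 q of at least 10 in both lists it held 3 C4-2B-only against 1. Among the equal settings, intervals nearest to a member TSS gave 0 against 0, which bears on neither side. The depth setting is also among the 11, and it left the line-only counts of all 9 genes as they were. NKX2-1 kept more in 7 and held fewer in 4, with 6 C4-2B-only against 2 at that threshold and 6 against 4 where intervals 500 bp apart or less were taken as shared. PROX1 held 2 of either kind. The other 6 windows held more C4-2B-only intervals. ONECUT2 had 9 against 2, LHX2 had 7 against 1, SOX2 had 6 against 0, INSM1 had 6 against 2, FOXA2 had 5 against 2 and POU3F2 had 4 against 3. The C4-2B excess at INSM1 and ONECUT2 was present under all 11 alternatives. With equal numbers of top intervals LHX2 had 3 against 4, FOXA2 3 against 3 and SOX2 1 against 0, and with the top 50000 intervals SOX2 had 0 against 1. Over all genes the median window held 6 C4-2B-only and 3 C4-2BER-only intervals, and the median difference of −3 was the same over the 9 genes. The windows were sparse for most members, with a median of 11 C4-2B and 9 C4-2BER intervals against 20 and 16 over all genes. Member windows were also narrower, with a median of 204885 bp against 227321 bp, and the counts were not scaled by width. The 100 kb flanks also reach other coding genes, among them CERKL, CFAP61, RALGAPA2, FBXL4, NKX2-8, ST8SIA3, FECH and DENND1A, and an interval in a window is not assigned to the member by its position.

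**Figure D2:**
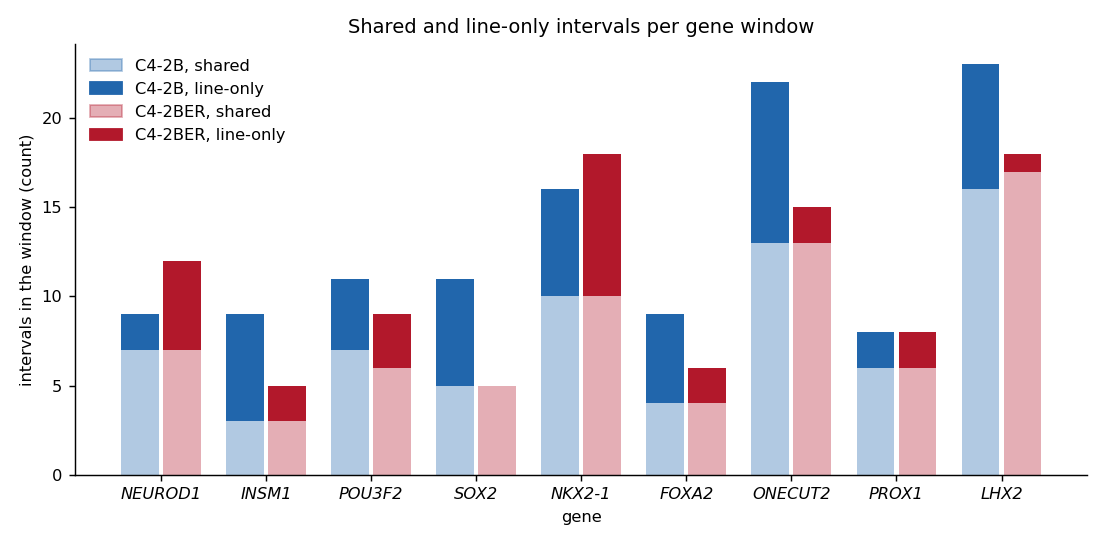
Stacked bars give the number of intervals in each gene window, C4-2B in blue and C4-2BER in red, with shared intervals pale and line-only intervals dark. NEUROD1 and NKX2-1 have the larger dark part in C4-2BER, which turns to C4-2B at a −log10 q of at least 10, and SOX2 has no C4-2BER-only interval in the full lists.

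The line-only intervals were mostly away from promoters. Summits within 2000 bp of a TSS of the member itself numbered 14 in C4-2B, of which 1 was C4-2B-only, and 17 in C4-2BER, of which 4 were C4-2BER-only, beside 15.7% and 13.6% line-only over all promoter intervals of the lists. Promoters of other genes in the windows accounted for 6 intervals in C4-2B, none of them line-only, and 8 in C4-2BER, 2 of them line-only. The remaining distal intervals lay in exons, in introns or between genes. In C4-2B, 46 of 98 distal intervals were line-only, or 46.9% (37.4 to 56.7), beside 41.9% over all distal intervals of that list. In C4-2BER, 19 of 71 were line-only, or 26.8% (17.9 to 38.1), beside 22.4%.

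Promoters were accessible in both lines at 8 of the 9 genes by the rule that an interval must reach within 2000 bp of a TSS, which 77.7% of all genes met. At all 8 the depth-scaled reads were higher in C4-2BER, as they were at 74.9% of genes with a promoter interval in both lists. The median ratio was 1.13 over the 8 genes and 1.10 over all such genes. The local background over 10 kb, in multiples of the genome floor, was also higher in C4-2BER at all 8 promoters, against 76.6% of genes, with a median ratio of 1.36 beside 1.12 over all genes, and its part in the promoter reads was not tested. By rank, 6 of the 9 members were higher in C4-2BER, against 60.1% of genes with a promoter interval in either list. NEUROD1 is among these 6 through the edge of an interval, described with that gene, and without it the count is 5 of 8.

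**Figure D3:**
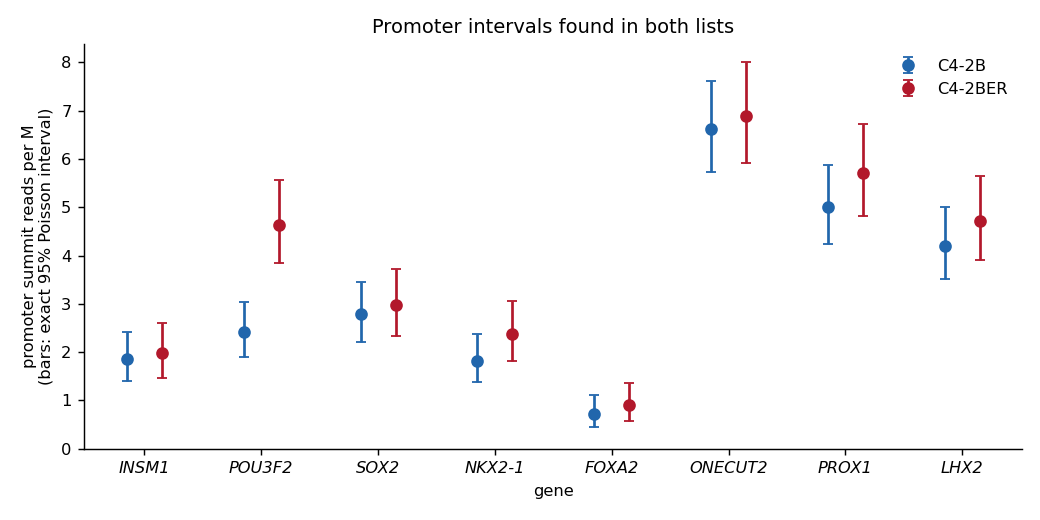
Points give depth-scaled summit reads per M recovered reads at the promoter interval of the 8 genes that had one in both lists, C4-2B in blue and C4-2BER in red, and bars are exact 95% Poisson intervals of the count. The intervals of the lines overlap at 7 genes and are apart at POU3F2, with 2.42 in C4-2B and 4.64 in C4-2BER.

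POU3F2, also called BRN2, is a POU-domain factor of neural progenitors and had the largest ratio of promoter reads among the 8 genes with a promoter interval in both lists. Its gene lies at chr6:98834574-98839458 on the plus strand. The promoter summit held 73 C4-2B reads and 117 C4-2BER reads, a depth-scaled ratio of 1.92 with an exact counting interval of 1.42 to 2.61. Its rank went from 79.3 to 90.4. The summits of the lists were 170 bp apart. The local background around it went from 3.45 times the genome floor (C4-2B) to 8.66 times (C4-2BER), and the authors' fold enrichment, which divides by that background, was lower in C4-2BER (6.87) than in C4-2B (8.49). Ranked by fold instead of p, the POU3F2 promoter therefore changed by −6.21 percentiles towards C4-2BER. The 250 bases before its TSS, from RefSeq on GRCh38.p14, are shown because this is the promoter whose reads differed most. They are 69.2% G or C and held no match to the 11 motifs searched, which are given with the motif shares.
POU3F2 promoter, chr6:98834324-98834573, plus strand: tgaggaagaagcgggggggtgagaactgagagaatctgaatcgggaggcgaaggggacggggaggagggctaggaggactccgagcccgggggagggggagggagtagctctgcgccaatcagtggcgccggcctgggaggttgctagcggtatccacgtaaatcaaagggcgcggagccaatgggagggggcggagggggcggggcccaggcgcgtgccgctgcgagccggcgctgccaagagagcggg

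Around this promoter the lists named different sites. C4-2BER-only intervals lay at 1.30 kb upstream (55 reads, −log10 q 11.3) and at 9.98 kb upstream (48 reads, −log10 q 26.9). C4-2B-only intervals lay at 13.5 kb upstream (40 reads, −log10 q 33.6) and 5.42 kb downstream (22 reads, −log10 q 12.0). The local background was 8.91 times the floor at the site 1.30 kb upstream in C4-2BER and 1.00 times at the site 13.5 kb upstream in C4-2B. Sequence 100 bp either side of the strongest line-only summit of each list is shown to set the sites side by side. The C4-2B-only site was 46.8% G or C and the C4-2BER-only site 65.7%, and neither held a searched motif.
POU3F2 C4-2B-only site, chr6:98820962-98821162, plus strand: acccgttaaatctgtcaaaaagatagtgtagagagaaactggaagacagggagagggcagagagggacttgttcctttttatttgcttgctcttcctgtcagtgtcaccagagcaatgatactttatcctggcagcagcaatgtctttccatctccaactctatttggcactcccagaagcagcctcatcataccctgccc
POU3F2 C4-2BER-only site, chr6:98824495-98824695, plus strand: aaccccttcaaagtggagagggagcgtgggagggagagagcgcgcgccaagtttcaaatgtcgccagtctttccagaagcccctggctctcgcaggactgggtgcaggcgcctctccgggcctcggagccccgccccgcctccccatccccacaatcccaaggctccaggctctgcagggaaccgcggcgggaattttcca
Of the 6 shared pairs at POU3F2, 4 were higher in C4-2BER, where 38.7% of all shared pairs were higher. The site 64.9 kb upstream went from 19 to 28 reads, a log2 ratio of 0.82, whereas an intron of FBXL4 at 90.3 kb downstream went from 36 to 13 reads (log2 ratio −1.21).

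NEUROD1, a basic helix-loop-helix factor of neurons and endocrine cells, lies at chr2:181668295-181680827 on the minus strand. No list had a summit within 2000 bp of its TSSs. The nearest strong site was in its coding exon, 2.36 kb downstream of the TSS, with 46 reads in C4-2B (rank 78.6) and 35 reads in C4-2BER (rank 78.3), and the summits were 1 bp apart. The C4-2BER interval extended into the 2000 bp limit and the C4-2B interval did not, so a count by overlap calls a NEUROD1 promoter interval C4-2BER-only although the site is shared, with a log2 ratio of −0.14. The strongest C4-2B interval of the window, in an intron of CERKL 20.2 kb downstream, went from 75 to 24 reads, a log2 ratio of −1.39 (depth-scaled ratio 0.383, counting interval 0.231 to 0.613). Upstream, the sites at 34.7 kb and 62.9 kb had log2 ratios of 0.60 and 0.56, with counting intervals of the ratio that include 1.

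The strongest C4-2BER-only interval of the NEUROD1 window was at the promoter of CERKL, 23.7 kb downstream of the NEUROD1 TSS, with 38 reads and a −log10 q of 22.3. CERKL, a ceramide kinase-like gene, overlaps NEUROD1, and the site belongs to its promoter by position. The strongest C4-2B-only interval was 97.3 kb upstream, between genes, with 25 reads and a −log10 q of 16.3. Both are shown because they are the strongest line-only sites of this locus, although the shared site 20.2 kb downstream held more reads. The CERKL promoter site was 72.1% G or C and the upstream site 34.8%, and neither held a searched motif.
NEUROD1 C4-2B-only site, chr2:181777750-181777950, plus strand: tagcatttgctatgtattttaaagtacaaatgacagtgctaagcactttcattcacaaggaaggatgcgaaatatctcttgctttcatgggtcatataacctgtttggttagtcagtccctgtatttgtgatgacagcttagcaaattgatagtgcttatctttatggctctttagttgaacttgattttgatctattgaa
NEUROD1 C4-2BER-only site, chr2:181656706-181656906, plus strand: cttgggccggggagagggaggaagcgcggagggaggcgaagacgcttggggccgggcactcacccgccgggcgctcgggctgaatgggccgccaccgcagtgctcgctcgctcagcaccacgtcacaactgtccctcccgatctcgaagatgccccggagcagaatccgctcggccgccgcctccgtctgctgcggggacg
The other 4 C4-2BER-only intervals held 8 to 11 reads, near the lowest count that the list contains.

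INSM1, a zinc-finger factor of neuroendocrine differentiation, lies at chr20:20368104-20370949 on the plus strand. Its promoter interval, with a summit 1.5 kb inside the gene, held 56 C4-2B reads and 50 C4-2BER reads, a depth-scaled ratio of 1.07 (0.715 to 1.59), and its rank was 77.5 and 77.0. The values differed by less than counting error. A C4-2BER-only interval had its summit 7 bp downstream of the TSS, with 26 reads and a −log10 q of 7.23, and its sequence held the SOX motif. The strongest C4-2B-only interval was in an intron of CFAP61, 89.9 kb upstream, with 35 reads and a −log10 q of 27.5. A second strong C4-2B-only interval lay 42.8 kb downstream in RALGAPA2 with 24 reads. Both lists called the site 7.5 kb upstream, with 62 C4-2B reads and 39 C4-2BER reads.

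SOX2, an HMG-box factor of stem cells and neural progenitors, lies at chr3:181711925-181714436 on the plus strand. Its promoter summit held 84 C4-2B reads and 75 C4-2BER reads, a depth-scaled ratio of 1.07 (0.772 to 1.48), and its rank was 84.3 and 86.3. All 5 C4-2BER intervals of the window were shared, and all 5 pairs were slightly higher in C4-2BER, with log2 ratios of 0.01 to 0.32 whose counting intervals include 1. Over the lists, 38.7% of shared pairs were higher. The 6 C4-2B-only intervals held 11 to 15 reads and ranked no higher than 22.9, so the missing sites were among the weakest of the C4-2B list. At that depth an absence from the C4-2BER list does not show that a site was closed.

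NKX2-1, the homeobox factor of lung, thyroid and forebrain that pathologists know as TTF-1, lies at chr14:36516392-36521149 on the minus strand. Its promoter interval held 55 C4-2B reads and 60 C4-2BER reads, a depth-scaled ratio of 1.31 (0.890 to 1.92), and its rank was 69.6 and 77.3. Ranked by fold, it changed by −2.57 percentiles towards C4-2BER. The C4-2BER list had 4 summits within 2000 bp of its TSSs and the C4-2B list had 2. The strongest of the additional C4-2BER-only intervals was 644 bp downstream of the canonical TSS, with 33 reads and a −log10 q of 10.0, and it held the forkhead and homeobox motifs. Either motif was in 1 of 25 C4-2BER promoter intervals of the 9 windows, beside 2.74% and 1.15% of all C4-2BER promoter intervals. Farther downstream lay 5 C4-2B-only and 4 C4-2BER-only intervals. The C4-2B-only ones included 31 reads at 37.5 kb, 35 reads at 49.3 kb and 31 reads at 89.4 kb, whereas the 4 C4-2BER-only ones held 9 to 15 reads. A shared site 77.8 kb upstream went from 42 to 11 reads, a log2 ratio of −1.67. A further pair 68.4 kb downstream went from 30 to 9 reads, but its summits were 322 bp apart.

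FOXA2, a forkhead factor of the endoderm, lies at chr20:22580998-22585455 on the minus strand and had the weakest promoter interval of the 8 genes in both lists. The summit held 22 C4-2B reads and 23 C4-2BER reads, a depth-scaled ratio of 1.25 (0.666 to 2.35), and its rank was 32.4 and 42.2. All 4 shared pairs were higher in C4-2BER, with log2 ratios of 0.15 to 0.41 whose counting intervals include 1. Of all shared pairs of the lists, 38.7% were higher. Of the 5 C4-2B-only intervals, 2 held more reads than the promoter, with 43 reads at 32.7 kb upstream (−log10 q 36.8) and 36 reads at 89.1 kb upstream (−log10 q 28.7). Another at 81.6 kb downstream held 20 reads (−log10 q 11.3) and the remaining 2 held 14 reads each. The strongest C4-2BER-only interval lay 93.6 kb downstream with 25 reads and a −log10 q of 17.9. The upstream C4-2B-only site is shown because it is the strongest distal site of the locus and the only printed site with motifs, in capitals, of the NKX2 type (CAAGTG or CACTTG, which also fits the general E-box form) and of the REST element. The C4-2BER-only site is shown beside it and held none. Of all C4-2B-only distal sites, 11.9% held the NKX2 motif and 1.82% the REST element.
FOXA2 C4-2B-only site, chr20:22617182-22617382, plus strand: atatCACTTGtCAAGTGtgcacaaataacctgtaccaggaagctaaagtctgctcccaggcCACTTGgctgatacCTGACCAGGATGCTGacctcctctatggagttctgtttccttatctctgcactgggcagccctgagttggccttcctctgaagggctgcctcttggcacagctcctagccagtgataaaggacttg
FOXA2 C4-2BER-only site, chr20:22490915-22491115, plus strand: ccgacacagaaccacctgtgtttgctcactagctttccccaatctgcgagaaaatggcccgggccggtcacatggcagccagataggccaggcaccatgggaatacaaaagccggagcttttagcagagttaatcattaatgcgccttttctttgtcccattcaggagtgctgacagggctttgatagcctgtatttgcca

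ONECUT2, a CUT-homeobox factor of liver and neurons, lies at chr18:57435374-57491298 on the plus strand and had the strongest promoter of the 9 genes in both lists. The summit held 200 C4-2B reads and 174 C4-2BER reads, a depth-scaled ratio of 1.04 (0.845 to 1.28), at ranks 99.2 and 98.7. The promoter values differed by less than counting error. All 9 distal shared pairs were lower in C4-2BER, with a median log2 ratio of −0.39, and the counting interval lay below 1 for 2 of them. Over all distal shared pairs of the lists, 32.0% were higher in C4-2BER and the median was −0.29. The site 10.6 kb inside the gene went from 73 to 31 reads (log2 ratio −0.98, summits 306 bp apart), and the site 2.65 kb inside from 100 to 59 reads (log2 ratio −0.50). C4-2B-only intervals formed a run upstream, with 43 reads at 53.1 kb, 31 at 46.2 kb, 41 at 45.2 kb and 21 at 37.7 kb, and further ones lay in ST8SIA3 (36 reads at 75.4 kb upstream), in the ONECUT2 intron (30 reads at 16.6 kb) and in FECH (49 reads at 142 kb downstream). These 7 had a −log10 q of at least 10, whereas the strongest of the 2 C4-2BER-only intervals, at 11.2 kb in the intron, reached 8.39.

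PROX1, a homeobox factor of lymphatic endothelium, liver and neurons, lies at chr1:213983181-214041510 on the plus strand. Its promoter summit held 151 C4-2B reads and 144 C4-2BER reads, a depth-scaled ratio of 1.14 (0.902 to 1.44), at ranks 97.6 and 96.6. A C4-2B-only interval stood at an alternative TSS 4.87 kb upstream of the canonical TSS, with 31 reads and a −log10 q of 6.18. All 5 distal shared pairs were lower in C4-2BER, with a median log2 ratio of −0.74, where 32.0% of all distal pairs were higher, with a median of −0.29. The counting interval lay below 1 for 1 of the 5. The lowest was 62.9 kb downstream and went from 37 to 9 reads (log2 ratio −1.78), with summits 364 bp apart. The strongest distal site, 135 kb downstream, had 81 C4-2B reads and 48 C4-2BER reads.

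LHX2, a LIM-homeobox factor of the forebrain, lies at chr9:124001670-124033301 on the plus strand. Its promoter summit held 127 C4-2B reads and 119 C4-2BER reads, a depth-scaled ratio of 1.12 (0.866 to 1.45), at ranks 92.8 and 93.7. The strongest C4-2B interval of the window by −log10 q was distal, 26.7 kb downstream, with 124 C4-2B reads and 35 C4-2BER reads, a log2 ratio of −1.57 (depth-scaled ratio 0.338, counting interval 0.225 to 0.495). Its sequence held the forkhead motif in both lists, as did 9.85% (C4-2B) and 9.17% (C4-2BER) of all shared distal sites. Of 13 distal shared pairs 12 were lower in C4-2BER, and the median log2 ratio was −0.90, where 32.0% of all distal pairs were higher, with a median of −0.29. The counting interval lay below 1 for 5 of the 13. The pairs 37.5 and 37.0 kb upstream take the same C4-2B interval (21 reads), with summits 7 and 525 bp apart. The sites 69.0 kb, 54.4 kb and 25.1 kb upstream went from 51 to 18, from 31 to 12 and from 34 to 10 reads. Summits of the pair at 25.1 kb were 193 bp apart. The 7 C4-2B-only intervals held 11 to 32 reads and none reached a −log10 q of 10. The single C4-2BER-only interval, 77.5 kb downstream, held 19 reads.

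Taken over the 9 windows, the shared pairs had a median log2 ratio of −0.13 (71 pairs), beside −0.17 over all 94077 shared pairs. None was at least 2 times as high in C4-2BER, against 2.57% of all pairs, and 9 were at least 2 times as high in C4-2B, or 12.7% against 15.3%. These 9 were all distal and made up 17.3% of the 52 distal pairs, against 18.1% of all distal pairs and 4.86% of all promoter pairs. All 13 pairs at member promoters were higher in C4-2BER, with a median of 0.29, where 64.2% of all promoter pairs were higher, with a median of 0.10. At distal sites 14 of 52 pairs were higher, with a median of −0.39, beside 32.0% and −0.29 over all distal pairs. The counting interval of the ratio lay above 1 for 1 pair, the POU3F2 promoter, and below 1 for 12 pairs, against 5.17% and 23.0% of all pairs. In direction, the promoter and distal medians of the members followed those of all shared pairs.

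**Figure D4:**
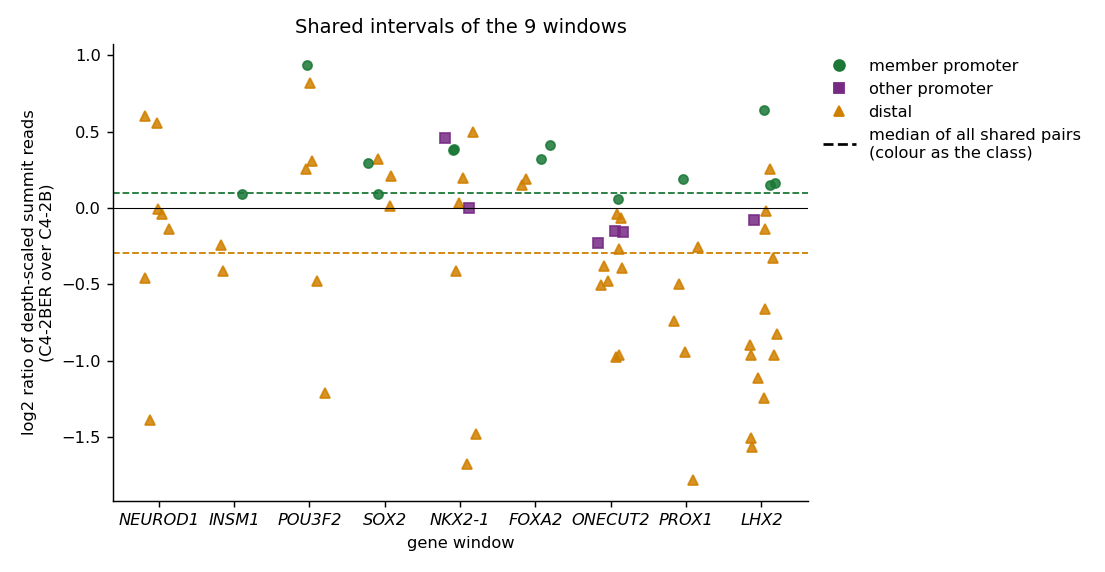
Each point is a shared interval, placed by gene window on the x axis and by the log2 ratio of depth-scaled summit reads, C4-2BER over C4-2B, on the y axis. Green circles are member promoters, purple squares are promoters of other genes, orange triangles are distal sites and the dashed lines are the medians of all promoter pairs (0.10) and all distal pairs (−0.29). All green circles lie above 0, and the distal sites of ONECUT2, PROX1 and LHX2 lie mostly below it.

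The sites were also set out by distance from the TSS, beside the windows of 19688 genes, in which an interval counts in each window that holds it. Within 20 kb of the canonical TSS, 12 of 41 C4-2B intervals and 9 of 37 C4-2BER intervals were line-only, or 29.3% and 24.3%, beside 26.8% and 15.7% over all windows. The shared pairs there had a median log2 ratio of 0.18, beside 0.04. Between 20 and 50 kb, 12 of 23 (52.2%) and 2 of 14 (14.3%) were line-only, beside 31.6% and 17.8%, with a median of −0.28 beside −0.05. Beyond 50 kb the counts were 23 of 54 (42.6%) and 14 of 45 (31.1%), beside 32.6% and 18.1%, with a median of −0.41 beside −0.08. The all-window values include promoters of other genes and weigh intervals near many genes more, so they are not a like background. Over all distal intervals, each counted once, 41.9% (C4-2B) and 22.4% (C4-2BER) were line-only, and the distal pairs had a median of −0.29. No counting interval was computed for the shares by distance.

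The sequences of the line-only distal sites were compared by base content and by 11 motifs within 100 bp of the summit, on both strands. The median G or C content was 47.0% in the 46 C4-2B-only sites and 53.2% in the 19 C4-2BER-only sites, beside 45.3% and 48.3% over all line-only distal sites of the lists, and the part of base content in the calls was not tested. The forkhead motif TGTTTAC was in 5 of 46 C4-2B-only sites, or 10.9% (4.73 to 23.0), beside 12.5% of all such sites. It was in 0 of 19 C4-2BER-only sites, for which the upper Wilson limit is 16.8%, beside 6.60%. The androgen response element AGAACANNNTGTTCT, with up to 1 mismatch, was in none of the 46 or the 19 sites, beside 0.855% and 0.107% of all such sites. The NKX2 motif CAAGTG was in 9 of 46 and 3 of 19 sites (11.9% and 11.5% of all), and AP-1 (TGACTCA) in 3 of 46 and 3 of 19 (8.21% and 6.66% of all). The E-box CAGATG was in 9 of 46 and 2 of 19, and the E-box CAGCTG in 6 of 46 and 0 of 19, where the shares over all sites were 15.9% and 15.2%, and 12.8% and 13.3%. The SOX motif ACAATGG, the octamer ATGCAAAT, the homeobox motif TAATTA, the ONECUT motif ATCGAT and the REST element CAGCACCNNGGACAG with up to 2 mismatches were each in at most 2 of the 46 sites and in none of the 19. The counting interval of every one of these shares within 100 bp included the share over all such sites. Within 250 bp of the summit, 18 of 22 shares stayed inside their interval from 100 bp and 4 moved. The wider stretch contains the narrower, so a share could only stay or rise. This count therefore does not show how stable the shares are. The forkhead motif was then in 2 of 19 C4-2BER-only sites (10.5%, beside 11.7% of all). NKX2 was in 8 of 19 (42.1% beside 28.0%) and the E-box CAGCTG in 1 of 19 (5.26% beside 26.6%). The 4 shares that moved were this NKX2 share and, in C4-2B-only sites, those of NKX2, CAGATG and CAGCTG. The C4-2B-only values were 34.8% beside 27.7%, 34.8% beside 33.5% and 30.4% beside 24.6%. No counting interval was computed at that width. Among 35116 promoters in RefSeq's table, which covered 6 of the 9 members, the E-box CAGCTG was in 14.0%, and of the 6 members it was in ONECUT2 alone.

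Related genes were set beside the members by promoter rank. Of 16 paralogues, 12 had a promoter interval in both lists, PROX2 in C4-2B alone, NKX2-4 in C4-2BER alone and 2 in neither. Their ranks were higher in C4-2BER at 9 and lower at 5, with POU3F3 (50.6 percentiles) and ONECUT3 (22.2) changed most upward, and PROX2 (−27.1) and POU3F4 (−9.13) most downward. At POU3F3 and ONECUT3 the intervals of the lists did not overlap, so these values set different sites of a promoter against each other. Of 17 other lineage factors, 16 had a promoter interval in both lists, 3 of them with intervals that did not overlap, and 1 had it in C4-2BER alone. A missing interval was placed at the bottom of the ranks. Ranks were higher at 14 and lower at 3, with a median change of 10.9 percentiles, against 1.97 over the 9 members and 0.60 over all genes with a promoter interval in either list. Of all those genes, 60.1% were higher in C4-2BER. The rank of NHLH1 changed by 59.8 percentiles and that of MYT1L by −46.9, in both cases between intervals that did not overlap. All 7 luminal factors had a promoter interval in both lists, with 5 higher and 2 lower in C4-2BER. Their changes ran from −7.17 at GATA2 and −6.38 at SPDEF to 9.38 at HOXB13 and 14.0 at FOXA1, which is also counted among the paralogues. The FOXA1 intervals overlap, but their summits lay apart, at chr14:37595294 in C4-2B and chr14:37596180 in C4-2BER. The depth-scaled ratio of reads at FOXA1 was 1.12, with a counting interval of 0.874 to 1.43.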

How the data were processed

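ATAC-seq libraries of C4-2B and C4-2BER were studied, 2 per line. Per the methods of the study, reads were trimmed with cutadapt, aligned to hg38 with Bowtie2, filtered for mapping quality and duplicates (Picard), merged by line, and peaks were called with macs2 (shift 100, extension 200, version not given in the sources used here). The submitters' processing notes also name FastQC and bedtools 2.17. The authors thus deposited 1 list per line. Its fold enrichment is a ratio of summit reads to local background as deposited, its deposited −log10 p and −log10 q come from macs2, as the authors deposited them, and the deposited score, a whole-number form of the q-value, was not used. The summit offset in bp was also read. All columns are of merged libraries.

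Each interval was counted once, with its summit of highest −log10 p. Whole reads and background were solved from fold and Poisson p, which succeeded for 100% of summits, and depth came from the lowest background and a genome size of 2700000000 bp. The solver, the overlap rules and the motif search were tested on simulated data. GENCODE release 44 gave genes and TSSs, and sequence came from hg38 and from RefSeq. A pair is a shared C4-2BER interval with its strongest C4-2B partner. Wilson, Poisson and exact binomial intervals (95%) cover counting error only, and no p-value can be given with 1 list per line. Python 3.11.15, scipy 1.17.1, pandas 2.3.3 and statsmodels 0.14.6 were used. In each window the strongest interval, the strongest line-only interval of each list and all line-only intervals with −log10 q of at least 10 were named; in the companion lists, genes with an interval in 1 list and the 2 largest changes either way. Some genes within these rules are not reported here. Further shared pairs were named after their values were seen. The members, lists and rules were chosen with earlier results of these data known. The 15 alternatives concerned peak strength, list length, depth, overlap, window, promoter and motif width, and 1 was added after the data were seen.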

Additional observations from a re-analysis of the deposited data

How the results depend on the processing

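No paired analysis was possible because macs2 was run on merged libraries of each line, and for the same reason no replicate could be left out. Of 63 values of the 6 main results under the alternatives, 44 stayed within 1.5 times the count or inside the counting interval and 19 moved. C4-2B-only intervals (47) became 29 with equal numbers of top intervals, 15 with the top 50000, 18 for strong intervals against the whole other list and 27 with 50 kb flanks. C4-2BER-only intervals (25) became 16 at −log10 q of at least 5, 7 at 10, 8 with the top 50000, 5 for strong intervals against the whole other list, 40 with 50% reciprocal overlap, 11 with 50 kb flanks and 16 for intervals nearest to a member TSS. The shared percent of C4-2B intervals (60.2) became 49.3 at −log10 q of at least 10, 69.1 with equal numbers, 75.3 for strong intervals and 47.5 with reciprocal overlap, and that of C4-2BER intervals (74.0) became 83.7, 88.4 and 58.3 at −log10 q of at least 10, for strong intervals and with reciprocal overlap. Members with a higher promoter rank in C4-2BER (6) became 3 at −log10 q of at least 10, with NEUROD1 among the 3 through its interval edge. FOXA2 had a change of 0 there, since its interval fell below the cut in both lists. The count became 7 with equal numbers, 5 by fold and 5 with promoters of 1000 bp. It was 5 when the summit had to lie within 2000 bp of the TSS, an alternative chosen after seeing the data. The median log2 ratio (−0.13) kept its sign under every alternative run for it. It ran from −0.24 with gaps of up to 500 bp to −0.002 for intervals nearest to a member TSS, where the lines hardly differed. Scaling C4-2B to the C4-2BER depth left all 6 results as they were. That setting rescaled intervals already called, without calling peaks again, so it cannot show how depth bears on the calls. Promoter rank changes reversed at −log10 q of at least 10 for SOX2 (−1.0) and LHX2 (−0.44), with equal numbers (5.43) and the top 50000 (12.9) for INSM1, and by fold for POU3F2 (−6.21), NKX2-1 (−2.57) and ONECUT2 (5.35). The causes were not tested, beyond the fewer or shorter sets that these settings leave. Of 198 locus counts 84 moved by over 1.5 times, most of them counts of a few intervals. An interval of 8 to 12 reads in 1 list may fall just under the lowest value of the other. The part of depth in such calls was not tested.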
